A study of Mus musculus with 6 samples.

Results

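The genes described here protect cells from oxidants and bind heavy metals. They are 36 genes chosen by name from 54838 in a count table of atrial RNA from old mice: NRF2 and its sensor, NRF2 target genes, enzymes that make or use glutathione, the thioredoxin system, superoxide dismutases, catalase, peroxidases, peroxiredoxins, metallothioneins and 2 NADPH oxidases. All 36 symbols matched 1 gene each, and 34 had enough counts to be tested among 14708 genes. The study sequenced atria of 6 mice with a mean age of 20.9 months (± 0.43, an error the labels do not define), of both sexes, to compare a knockout (KO) of protein kinase C epsilon, encoded by Prkce, with wild-type (WT) mice. The mouse lines named are C57BL/6J for WT and JAX stock #004189 for KO.

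The genotype of 4 libraries is given in opposite ways by the labels. The library name, which heads the column of the count table, puts 3 libraries in WT and 3 in KO, while the genotype field, with the title and mouse line, moves WT replicates 2 and 3 to KO and KO replicates 2 and 3 to WT. Only WT replicate 1 and KO replicate 1 carry the same genotype in both. Libraries are called here WT or KO by their name and numbered as in their titles, and each comparison was made by library name and again by genotype field. Prkce settles neither reading: it stood at 36.2, 11.7 and 30.2 CPM (normalised counts, scaled to library size by TMM) in WT replicates 1 to 3 and at 9.20, 5.15 and 28.6 CPM in KO replicates 1 to 3. By library name WT replicate 2 and KO replicate 3 are at odds with Prkce, and by genotype field WT replicate 3 and KO replicate 2 are. Every direction below is therefore one between labels, and fits without the libraries at odds are given where results rest on them.

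Total counts per library ran from 11574206 to 24138824. The 12 atrial muscle markers, among them Nppa, Myl7 and Sln, summed to 37223 to 45108 CPM, and 8 ventricular markers to 714 to 1140 CPM. These sums go with the tissue label. Having enough counts to test does not bear on it, since 12 of 12 atrial and 7 of 8 ventricular markers had them. Y-linked genes summed to 1.08 and 1.09 CPM in WT replicates 1 and 2 and to 78.9 to 146 CPM in the other 4 libraries, so low Y-linked expression marks 2 of 3 WT and 0 of 3 KO libraries by library name and 1 of 3 in each group by genotype field. WT replicate 1 had the lowest level of 16 of the 34 tested antioxidant genes (47.1%), and it had the lowest level of 25.1% of all genes tested. In atrial tissue, fewer cells of a type and less RNA in each cell cannot be told apart. The labels call the mice biological replicates, and each library is 1 sample.

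As background, NRF2 (encoded by Nfe2l2) is a transcription factor that its partner KEAP1 keeps at a low level by marking it for degradation. Oxidants and electrophiles modify KEAP1, and NRF2 then enters the nucleus and induces genes that carry antioxidant response elements. Glutathione and thioredoxin are the main thiol buffers of the cell, and peroxidases and peroxiredoxins use them to remove peroxides, which the heart makes in quantity in its many mitochondria. Metallothioneins are small, cysteine-rich proteins that bind zinc and copper, and the factor MTF1, glucocorticoids and inflammatory signals induce them.

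The promoters of the 5 genes on which the results below turn most are shown first: Mt1 and Mt2, the metallothioneins, Nqo1 and Chac1, whose groups did not overlap by library name, and Slc7a11, which had the widest range over libraries. Each sequence holds the 250 bases before the transcription start annotated in RefSeq on GRCm38.p6, 5′ to 3′ on the strand of the gene. Distances to the start are counted from that RefSeq start. It can differ from the start in GENCODE M21, from which the gene positions below come. The Mt2 window ends at 94172617, while the GENCODE gene begins at 94172664. For Mt1 these positions are 94179088 and 94179082. Which start is used in atria was not tested. Capitals mark matches, on either strand, to the core of the metal response element (TGCACNC or TGCGCNC), the antioxidant response element (TGACNNNGC) or the element bound by ATF4 with C/EBP factors (TGATGNAA).
Mt1, chr8:94178839-94179088, plus strand: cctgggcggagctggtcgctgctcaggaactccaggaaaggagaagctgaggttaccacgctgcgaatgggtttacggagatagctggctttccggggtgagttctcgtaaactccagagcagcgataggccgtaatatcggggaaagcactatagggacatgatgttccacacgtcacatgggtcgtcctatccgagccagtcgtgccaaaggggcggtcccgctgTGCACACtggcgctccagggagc
Mt2, chr8:94172368-94172617, plus strand: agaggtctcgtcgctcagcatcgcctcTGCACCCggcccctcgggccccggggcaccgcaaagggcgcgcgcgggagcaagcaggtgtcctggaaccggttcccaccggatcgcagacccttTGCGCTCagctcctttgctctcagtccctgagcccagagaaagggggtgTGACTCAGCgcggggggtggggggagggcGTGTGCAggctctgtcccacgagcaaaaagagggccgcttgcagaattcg
Nqo1, chr8:107403206-107403455, minus strand: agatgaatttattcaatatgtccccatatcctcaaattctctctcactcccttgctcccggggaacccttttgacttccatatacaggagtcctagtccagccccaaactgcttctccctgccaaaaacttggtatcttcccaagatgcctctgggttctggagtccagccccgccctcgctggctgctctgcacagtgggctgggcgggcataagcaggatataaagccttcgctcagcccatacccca
Chac1, chr2:119350992-119351241, plus strand: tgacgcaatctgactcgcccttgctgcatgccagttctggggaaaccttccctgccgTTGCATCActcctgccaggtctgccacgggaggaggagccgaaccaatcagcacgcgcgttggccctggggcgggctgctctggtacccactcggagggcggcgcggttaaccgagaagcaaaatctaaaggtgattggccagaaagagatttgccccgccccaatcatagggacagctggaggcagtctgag
Slc7a11, chr3:50443614-50443863, minus strand: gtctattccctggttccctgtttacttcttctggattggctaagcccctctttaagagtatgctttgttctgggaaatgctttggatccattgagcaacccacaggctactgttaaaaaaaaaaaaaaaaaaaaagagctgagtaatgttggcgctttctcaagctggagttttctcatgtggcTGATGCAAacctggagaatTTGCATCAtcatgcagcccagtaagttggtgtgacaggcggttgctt

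The metal response core occurred once in the Mt1 window, ending 17 bases before the RefSeq start, and at 3 places in the Mt2 window. Bases outside the windows, among them those after the RefSeq start, were not searched. These counts are therefore not the number of elements in either promoter. It was present in 21.4% of 32851 windows of this length genome-wide. The Mt2 window also held 1 antioxidant response core, TGACTCAGC, 79 to 71 bases before the start; 10.2% of windows have such a core. The ATF4 core was found in 3.45% of windows. Slc7a11 had it at 2 places, 66 to 59 and 47 to 40 bases before the start and on opposite strands, and Chac1 had it at 1 place. No core was found in these 250 bases of Nqo1. Of the 30 antioxidant genes with a window, 7 held a metal response core, 7 an antioxidant response core (Gclm, Gsta3, Mt2, Nfe2l2, Prdx1, Sod1 and Txnrd1) and 2 an ATF4 core. A match describes letters only and is not evidence of binding.

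How much of each gene was counted sets what can be said of it. The counts appear, for most genes, to leave out stretches where annotated genes overlap, though the counting setting is not known. Of 1480 protein-coding genes with no exonic base outside other genes, 1350 (91.2%) had 0 counts in all 6 libraries, against 25.3% of 14131 whose exons are all outside other genes. There were exceptions: 10 of the 1480 had at least 1000 counts, among them Glo1, the glyoxalase, with 10858. In GENCODE M21 (GRCm38) 31 of the 36 genes had at least 80% of their exonic bases outside other genes. The other 5 were Keap1 (67.6%), Mt2 (26.5%, the rest lying under the antisense gene Gm45774), Gclm (9.87%), Gsta3 (6.31%) and Gss (2.28%). Gclm, the modifier subunit of glutamate-cysteine ligase, had only 2 to 18 counts per library. Gss, glutathione synthetase, had 1 to 9 counts. Neither was tested, and the low values of these 2 genes and of Gsta3 cannot be read as low expression. Members of the glutathione transferase and metallothionein families resemble each other in sequence, so reads may be split between them.

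Per kilobase of free exon, the secreted glutathione peroxidase Gpx3 was highest, with a mean over the 6 libraries of 2292 CPM per kb. The length joins the exons of all annotated transcripts of a gene, whether or not they are used in atria. The ranking is therefore rough. The glutathione transferase Gstm1 followed at 241 CPM per kb. The peroxiredoxins Prdx2, Prdx5, Prdx3 and Prdx1 lay at 182, 167, 162 and 152 CPM per kb, and Gpx4, which reduces lipid peroxides in membranes, at 148. Gstm2 stood at 107 CPM per kb, and Mt1 and Gpx1 both at 101 CPM per kb. At the other end were Nox4, a hydrogen peroxide-producing oxidase, at 0.513 CPM per kb and Slc7a11, the cystine importer, at 0.0852 CPM per kb. This ranking covers the 31 genes with at least 80% of their exons free.

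Most of these genes varied little between the 6 atria. The highest library was at a median 1.43 times the lowest over the 34 tested genes, against 1.65 times over all genes tested. Among genes with a mean of at least 10 CPM, the medians were 1.39 times for 30 antioxidant genes and 1.47 times for 8846 genes in all. Gsta4, a transferase that clears the lipid peroxidation product 4-hydroxynonenal, varied least, from 114 to 128 CPM. Sod2, the mitochondrial superoxide dismutase, ran from 385 to 446 CPM, Prdx6 from 185 to 218 CPM and Prdx3, the mitochondrial peroxiredoxin, from 210 to 250 CPM. A ratio above 2 was seen in 8 of the 34 genes (23.5%), against 31.7% of all genes tested. The widest ranges were those of Slc7a11 (7.24 times), Mt2 (5.26 times) and Gsta3 (4.38 times). Gsta3 stood at 2.58, 0.589 and 1.32 CPM in WT replicates 1 to 3 and at 2.33, 1.60 and 1.81 CPM in KO replicates 1 to 3, on 7 to 43 counts.

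**Figure D1:**
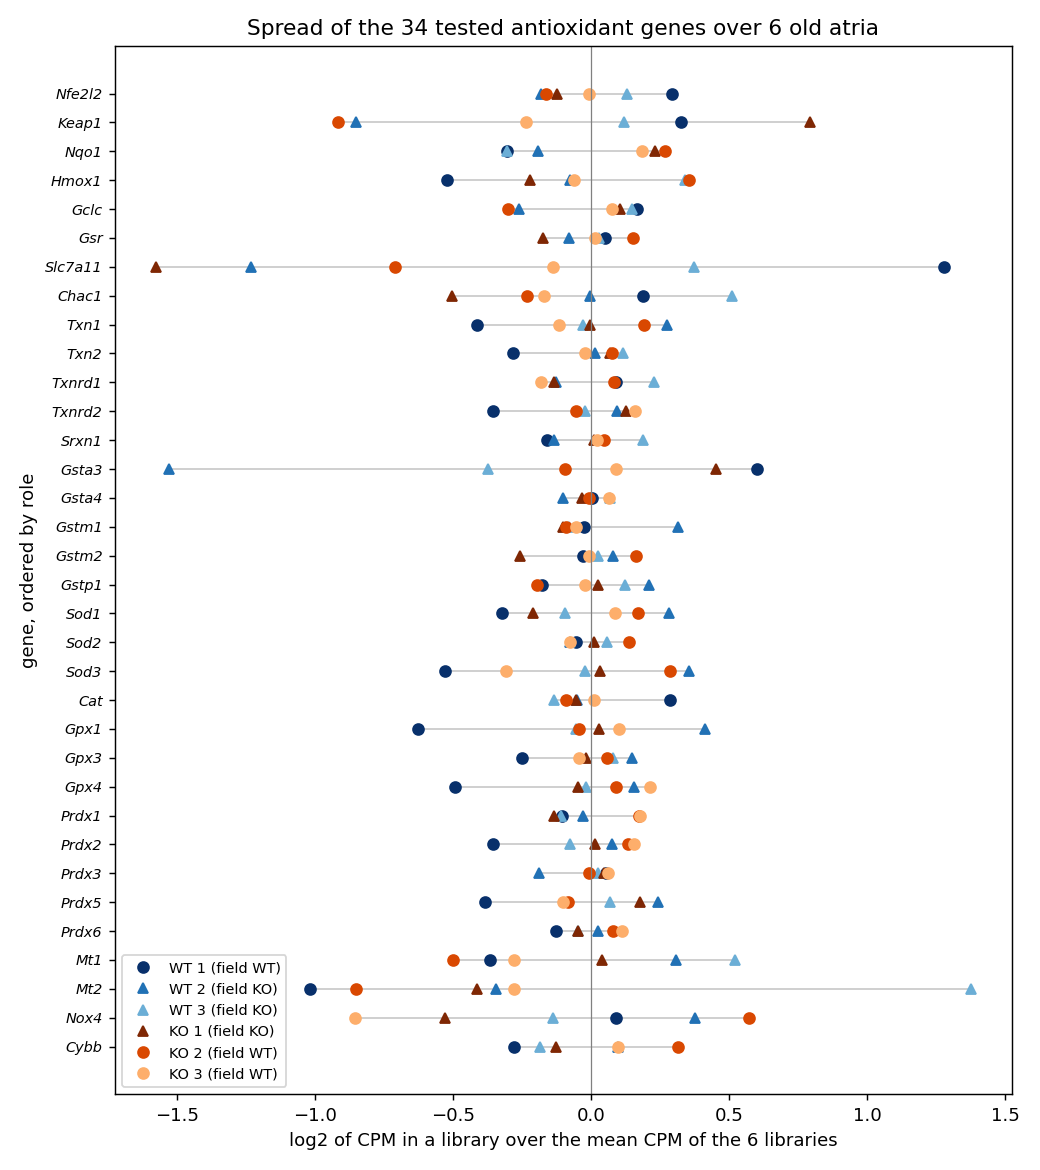
Each row is 1 of the 34 tested genes, and each point is 1 library, placed by the log2 of its CPM over the mean CPM of the 6 libraries; blue marks WT and orange or brown KO by library name, circles mark WT and triangles KO by genotype field. Most rows are narrow, and Slc7a11, Mt2, Gsta3 and Keap1 are wide, with Mt2 drawn out by WT replicate 3 alone.

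By library name, 0 of the 34 tested genes passed edgeR's quasi-likelihood test at adjusted p 0.05, and 0 of 14708 genes (0%) did in all. DESeq2 and limma-voom gave 0 of these genes too. An unadjusted p under 0.05 was held by 2 of the 34 genes (5.88%), against 1.49% of all genes tested. Nqo1 was higher in KO, as were 0.639% of all genes at that p, and Chac1 was lower, as were 0.85%. The same 2 genes were those whose 3 KO and 3 WT libraries did not overlap (5.88%), against 5.95% of all genes, 3.33% higher and 2.62% lower, so that share is near the background. Of the 34, 21 were higher in KO, with a median log2 fold change of 0.05, while the median over all genes was -0.02 and 45.5% of all genes were higher. That median became -0.05 without WT replicate 1, with 15 of 34 higher, and -0.03 with Y-linked expression as a covariate, with 14 of 34 higher. Without the 2 libraries at odds with Prkce, 0 of the 34 genes passed and 6 genes (0.0408%) did in all.

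By genotype field, 0 of the 34 genes passed the test, and 2 of 14708 genes (0.0136%) did in all. An unadjusted p under 0.05 was held by 2 genes, Mt1 and Prdx5 (5.88%), both higher in KO, against 5.69% of all genes, 4.34% higher and 1.35% lower, so the share is near the background. Groups did not overlap for 3 genes, Mt1, Prdx5 and Gstp1 (8.82%), all higher in KO, against 12% of all genes, 7.48% higher and 4.49% lower. Of the 34, 19 were higher in KO, with a median log2 fold change of 0.02, while the median over all genes was -0.01 and 48.1% of all genes were higher. Without the 2 libraries at odds with Prkce, 0 of the 34 genes passed and 3 genes (0.02%) did in all. The sign of the fold change was opposite between both readings for 16 of the 34 genes. Both readings use the same 6 libraries with the labels of 4 exchanged, so opposite signs are built into the design. The count therefore does not describe these genes. With the replicate number as a block, which pairs libraries of the same number, Mt1 passed the test and 51 genes passed in all.

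**Figure D2:**
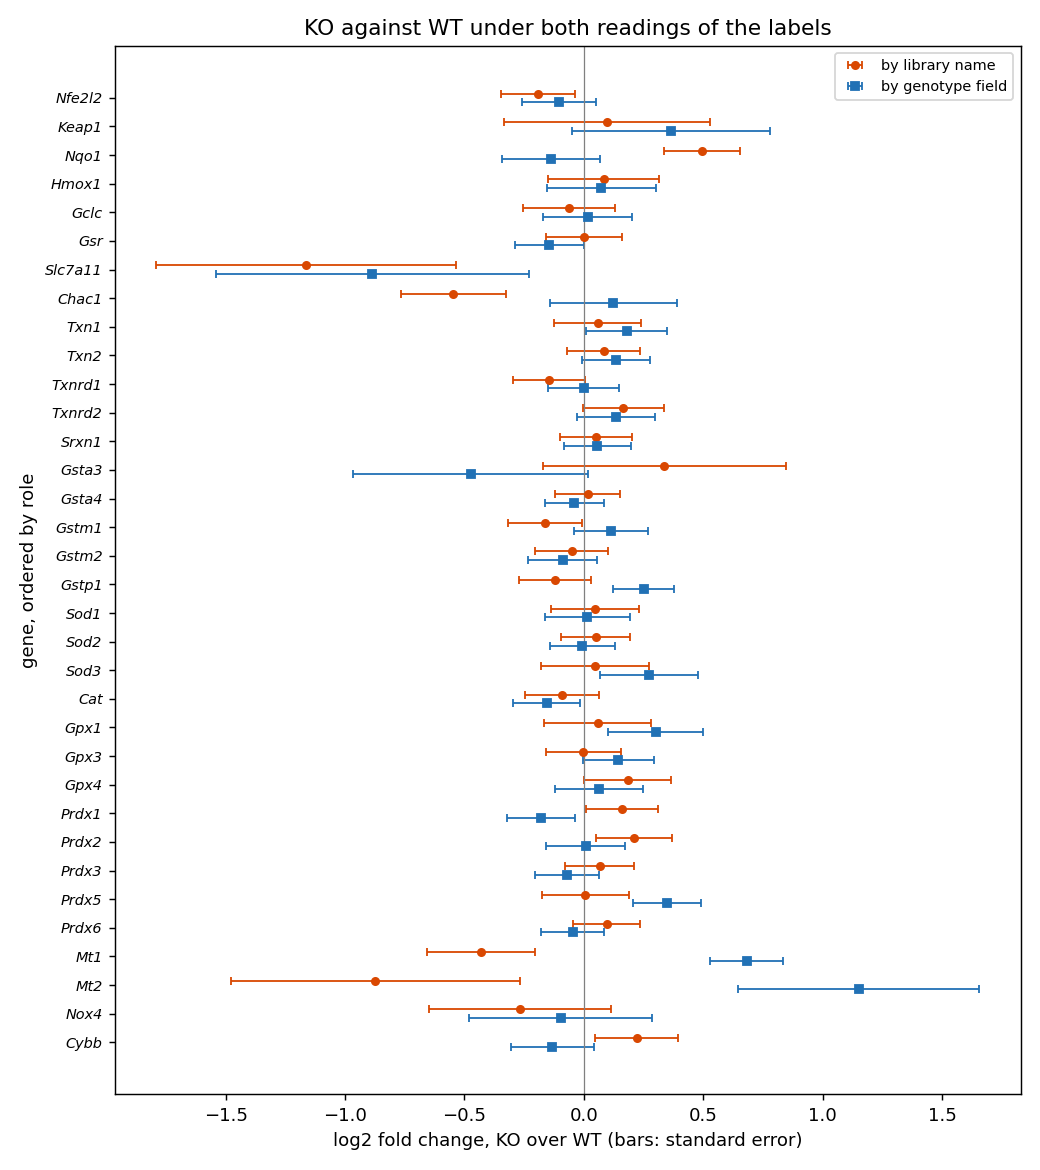
Log2 fold change of KO over WT with its standard error for the 34 tested genes, by library name (orange circles) and by genotype field (blue squares), over the same 6 libraries. Most values lie within 1 standard error or so of 0, Mt1 and Mt2 are below 0 by library name and above 0 by genotype field, and Nqo1 is above 0 only by library name.

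Mt1 and Mt2 are the broadly expressed metallothioneins. Mt1 had the smallest unadjusted p of the 34 genes by genotype field, 0.00099, and Mt2 overlapped between the groups in both readings. Mt1 (ENSMUSG00000031765, chr8:94179082-94180327) stood at 97.5, 156 and 180 CPM in WT replicates 1 to 3 and at 129, 88.8 and 104 CPM in KO replicates 1 to 3. The 3 libraries whose field says KO were the 3 highest, and the groups did not overlap by field. Mean Mt1 was 155 ± 25.6 CPM (SD, n = 3) with the field KO and 96.7 ± 7.48 CPM with the field WT. The log2 fold change was 0.68 (SE 0.15), 1.60 times, with adjusted p = 0.595 in edgeR's test, and so it did not pass over all genes. It passed with the replicate block (0.67, SE 0.14, adjusted p = 0.0403), in DESeq2 (0.67, SE 0.17, adjusted p = 0.0492) and in edgeR without the low-count filter (0.68, SE 0.16, adjusted p = 0.0481). It did not pass in the other 14 alternative fits. In the 18 fits by genotype field the log2 fold change lay between 0.49 and 0.80, the lowest being the fit without WT replicate 3 and KO replicate 2, the libraries at odds with Prkce (adjusted p = 0.837). Mt1 was therefore called in 3 of 17 alternatives and in none that left out a library.

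By library name the order of Mt1 was turned. Mean Mt1 was 107 ± 20.4 CPM in KO and 145 ± 42.6 CPM in WT, a log2 fold change of -0.43 (SE 0.23, edgeR adjusted p = 0.99993), and the groups overlapped since WT replicate 1 was the second lowest library. In the 4 libraries with numbered names, WT replicates 2 and 3 were both above KO replicates 2 and 3, at -0.80 (SE 0.17, edgeR adjusted p = 0.399). In those 4 libraries both readings hold the same pairs with the labels exchanged, so this one difference enters both.

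Mt2 (ENSMUSG00000031762, chr8:94172664-94173568) rested on a single library. It stood at 8.40, 13.4 and 44.1 CPM in WT replicates 1 to 3 and at 12.8, 9.43 and 14.0 CPM in KO replicates 1 to 3. WT replicate 3 was at 44.1 CPM (95% Poisson interval 41.5 to 47.0), and the other 5 libraries lay between 8.40 and 14.0 CPM. Per 100 counts of Mt1 there were 24.5 counts of Mt2 in WT replicate 3 and 8.59 to 13.5 in the others. Only 26.5% of Mt2 exonic bases lie outside other genes, and Gm45774, the antisense gene over the rest, had 0 to 7 counts per library. By genotype field the log2 fold change was 1.15 (SE 0.51, edgeR adjusted p = 0.874), and 0.30 (SE 0.27) without WT replicate 3. By library name it was -0.87 (SE 0.61, edgeR adjusted p = 0.99993), and 0.16 (SE 0.29) without WT replicate 3.

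Other lists were also highest in WT replicate 3. Glucocorticoid-induced genes, 12 in all, summed to 1946 CPM there and to 1121 to 1497 CPM in the other 5 libraries. The 10 acute-phase and interleukin-6 response genes, 1 of them at 0 counts, summed to 467 CPM against 269 to 388 CPM, and the 8 neutrophil markers to 70.0 CPM against 14.4 to 49.0 CPM. A highest sum in WT replicate 3 was not particular to these lists. It was also seen for NADPH supply, NRF2 and KEAP1 partner, integrated stress response, metal handling, epicardial and immediate early genes. By library name 12 of the 12 glucocorticoid-induced genes were lower in KO, with a median log2 fold change of -0.23. The median over all genes was -0.02, and 45.5% of all genes were higher. By genotype field 7 of the 12 were higher and 5 lower, and 0 passed in either reading. The part of these genes and cells in the metallothionein levels was not tested. Myl2, the ventricular light chain, followed the genotype field as Mt1 did, with 357, 174 and 251 CPM in WT replicates 2 and 3 and KO replicate 1 and 25.7 to 33.4 CPM in the other 3. It passed the test by genotype field (log2 fold change 3.09, SE 0.25, edgeR adjusted p = 0.00386), as the only one of 7 ventricular markers tested. The 8 ventricular markers summed to 1010 to 1140 CPM with the field KO and to 714 to 1011 CPM with the field WT. These ventricular sums overlapped. The sums of 2 other marker lists did not overlap by genotype field, and of single genes tested 12% did not either. The 7 brown adipocyte markers, 1 at 0 counts, summed to 479 to 604 CPM with the field KO and to 331 to 477 CPM with the field WT. The sum does not speak for the list, since only 1 of its 5 tested markers was higher with the field KO and 4 were lower. The 8 B and plasma cell markers, 1 at 0 counts, summed to 84.6 to 101 CPM with the field KO and to 118 to 214 CPM with the field WT. Of the 7 B and plasma cell markers tested, 6 were lower and 1 higher with the field KO. In edgeR's test 2 were lower at an unadjusted p under 0.05, against 1.35% of all genes, and 0 passed. By library name 6 of the 7 were higher in KO and 1 lower. Of 13 immediate early genes, which respond to tissue handling, 4 were higher with the field KO at an unadjusted p under 0.05 in edgeR's test, and 0 passed. Of all genes tested, 4.34% were higher at that p. At any p, 9 of the 13 were higher and 4 lower by genotype field, and 3 were higher and 10 lower by library name. The part of these tissues, cells and responses in the Mt1 difference was not tested.

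Of 16 genes of metal handling around the metallothioneins, 15 were tested and 0 passed in either reading. Mt3, another metallothionein, best known from brain, stood at 17.0, 37.9 and 28.6 CPM in WT replicates 1 to 3 and at 25.8, 22.9 and 29.8 CPM in KO replicates 1 to 3. Its log2 fold change by genotype field was 0.40 (SE 0.22, edgeR adjusted p = 0.904). Mt4 had 0 counts in all 6 libraries, which allows up to 0.132 to 0.252 CPM at 3 counts per library. The zinc transporter Slc30a4 was at -0.22 (SE 0.16) by library name.

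**Figure D3:**
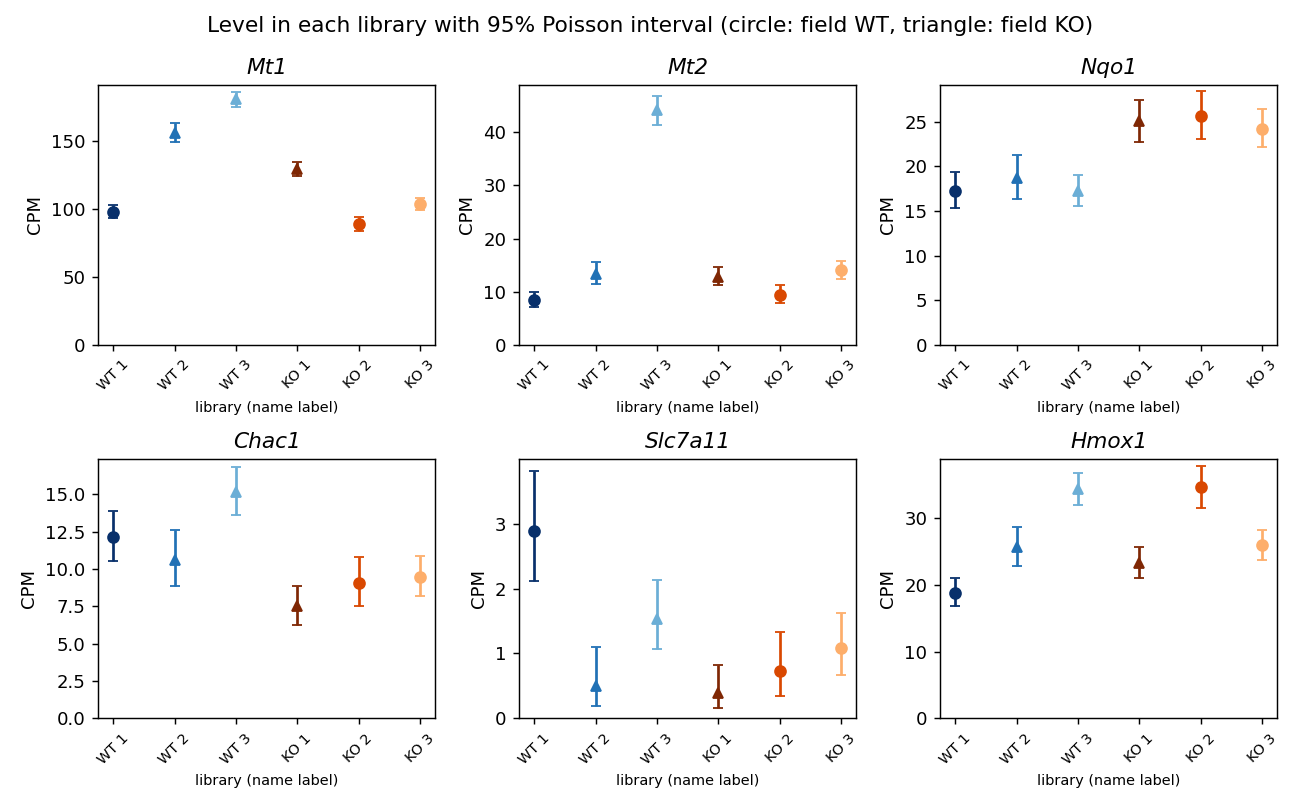
Level in CPM of Mt1, Mt2, Nqo1, Chac1, Slc7a11 and Hmox1 in each library, in the order of the library names, with 95% Poisson intervals that cover counting error only; circles are libraries with the field WT and triangles those with the field KO. The 3 triangles are highest for Mt1, WT replicate 3 stands alone for Mt2, and the 3 libraries named KO are highest for Nqo1 and lowest for Chac1.

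The NRF2 sensor and factor did not separate the groups. Nfe2l2 stood at 118, 85.3 and 106 CPM in WT replicates 1 to 3 and at 88.8, 86.4 and 96.3 CPM in KO replicates 1 to 3. Its log2 fold change was -0.19 (SE 0.16) by library name and -0.10 (SE 0.16) by genotype field. Keap1 stood at 8.76, 3.87 and 7.58 CPM in WT replicates 1 to 3 and at 12.1, 3.70 and 5.92 CPM in KO replicates 1 to 3. WT replicate 2 and KO replicate 2 were lowest and KO replicate 1 was highest, so the groups overlapped in both readings. Of 13 partner genes of NRF2 and KEAP1, all were tested, 0 passed, and 3 were higher in KO by library name and 8 by genotype field. Mafk, a small MAF protein that pairs with NRF2 on DNA, was at -0.32 (SE 0.17) by library name, and Bach2 of the BACH repressor family at 0.53 (SE 0.24) by genotype field.

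Nqo1, a quinone reductase widely used as a readout of NRF2 activity, separated the libraries by name. It stood at 17.3, 18.7 and 17.3 CPM in WT replicates 1 to 3 and at 25.0, 25.7 and 24.2 CPM in KO replicates 1 to 3. Every library named KO was above every library named WT. Means were 25.0 ± 0.723 CPM (SD, n = 3) in KO and 17.7 ± 0.815 CPM in WT, 1.41 times. The log2 fold change was 0.49 (SE 0.16, unadjusted p = 0.00916, edgeR adjusted p = 0.99993), and it did not pass over all genes. Over the 18 fits by library name it lay between 0.48 and 0.55, with adjusted p from 0.952 to 0.99998. Within the 4 numbered libraries it was 0.48 (SE 0.19, edgeR adjusted p = 0.966). By genotype field it was -0.14 (SE 0.20).

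Hmox1, the haem-degrading enzyme and another NRF2 target, did not follow Nqo1. It stood at 18.8, 25.7 and 34.3 CPM in WT replicates 1 to 3 and at 23.2, 34.6 and 25.9 CPM in KO replicates 1 to 3, highest in WT replicate 3 and KO replicate 2. The log2 fold change was 0.08 (SE 0.23) by library name and 0.07 (SE 0.23) by genotype field. Srxn1, sulfiredoxin, which repairs overoxidised peroxiredoxins, stood at 39.1, 39.8 and 49.8 CPM in WT replicates 1 to 3 and at 44.0, 45.1 and 44.3 CPM in KO replicates 1 to 3. Its log2 fold change was 0.05 (SE 0.15) by library name.

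Of 21 other NRF2 targets, 18 were tested and 0 passed in either reading. By library name 11 were higher and 7 lower in KO, with a median log2 fold change of 0.06, and by genotype field 8 were higher and 10 lower. Biliverdin reductase A, Blvra, was at 0.21 (SE 0.15) by library name. Ftl1, the ferritin light chain, was at 0.50 (SE 0.20, edgeR adjusted p = 0.868) by genotype field. It stood at 172, 373 and 230.5 CPM in WT replicates 1 to 3 and at 245, 220.2 and 206 CPM in KO replicates 1 to 3.

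Of the 4 tested genes of glutathione synthesis, recycling and breakdown, Chac1 and Slc7a11, both also targets of the stress factor ATF4, had the smallest p by library name, and Slc7a11 and Gsr by genotype field. Chac1, which breaks glutathione down, stood at 12.1, 10.6 and 15.2 CPM in WT replicates 1 to 3 and at 7.50, 9.06 and 9.45 CPM in KO replicates 1 to 3. Every library named KO was below every library named WT. The log2 fold change was -0.55 (SE 0.22, unadjusted p = 0.0295, edgeR adjusted p = 0.99993), and between -0.75 and -0.39 over the 18 fits by library name. Within the 4 numbered libraries it was -0.48 (SE 0.25, edgeR adjusted p = 0.99850). By genotype field it was 0.12 (SE 0.26).

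Slc7a11 (ENSMUSG00000027737, chr3:49892526-50443614), which brings in cystine for glutathione synthesis, was scarce and the most variable. It had 48, 6 and 35 counts in WT replicates 1 to 3 and 7, 10 and 22 counts in KO replicates 1 to 3, or 2.88, 0.505 and 1.53 CPM and 0.398, 0.725 and 1.08 CPM. Neither reading separated the groups, with log2 fold changes of -1.16 (SE 0.63) by library name and -0.89 (SE 0.66) by genotype field. The 3 libraries with the highest Prkce, WT replicates 1 and 3 and KO replicate 3, were also the 3 highest for Slc7a11. Without the libraries at odds with Prkce the log2 fold change was -1.97 (SE 0.67, edgeR adjusted p = 0.99852) by library name and -2.13 (SE 0.75, edgeR adjusted p = 0.837) by genotype field. In both fits the choice of libraries was made from Prkce. Without WT replicate 1 it was -0.52 (SE 0.65) by library name and -0.12 (SE 0.68) by genotype field.

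An order like that of Prkce was not particular to Slc7a11. The 3 libraries with high Prkce were the 3 highest for Nfe2l2, Slc7a11 and Gsta4 and the 3 lowest for Txn1 and Sod3. These are 5 of 34 genes (14.7%), against 12% of all genes tested. The Poisson intervals of Slc7a11 in KO replicate 3 (0.675 to 1.63 CPM) and KO replicate 2 (0.348 to 1.33 CPM) overlapped.

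Gclc and Gsr overlapped between the groups in both readings. Gclc, the catalytic subunit of glutamate-cysteine ligase and the rate-limiting enzyme of glutathione synthesis, stood at 21.8, 16.2 and 21.5 CPM in WT replicates 1 to 3 and at 20.8, 15.7 and 20.4 CPM in KO replicates 1 to 3, lowest in both libraries numbered 2. Gsr, which recycles oxidised glutathione, ran from 21.9 to 27.5 CPM, with a log2 fold change of 0.00 (SE 0.16) by library name and -0.14 (SE 0.14) by genotype field. Of 31 other glutathione genes 26 were tested and 0 passed. By library name 19 were higher, and by genotype field 11. Gsta1, a transferase, varied widely, from 0.284 to 2.70 CPM, and was at -0.98 (SE 0.70) by library name. Gstp2, a close relative of Gstp1, ran from 3.84 to 7.41 CPM and was at 0.58 (SE 0.26, edgeR adjusted p = 0.868) by genotype field, with no overlap. Mgst3, a microsomal transferase, was at 0.35 (SE 0.14, edgeR adjusted p = 0.868) by genotype field, with 99.7, 107 and 130 CPM in WT replicate 1 and KO replicates 2 and 3 and 154, 143 and 132 CPM in the libraries with the field KO.

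Of 12 genes of the integrated stress response around Chac1 and Slc7a11, all were tested and 0 passed. Cebpb, a C/EBP factor of which 39.6% lies outside other genes, stood at 11.5, 19.6 and 19.6 CPM in WT replicates 1 to 3 and at 9.26, 8.12 and 9.99 CPM in KO replicates 1 to 3. Its log2 fold change by library name was -0.89 (SE 0.24, edgeR adjusted p = 0.99993). Asns, asparagine synthetase, an ATF4 target, was at -0.56 (SE 0.20) by genotype field, and Phgdh, the first enzyme of serine synthesis, at 0.80 (SE 0.37) by library name, which is opposite in sign to Chac1.

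Glutathione S-transferases couple glutathione to electrophiles. Gstp1 stood at 58.1, 76.2 and 71.6 CPM in WT replicates 1 to 3 and at 67.0, 57.4 and 64.9 CPM in KO replicates 1 to 3. The groups did not overlap by genotype field, at 71.6 ± 4.61 CPM with the field KO and 60.1 ± 4.10 CPM with the field WT; KO replicates 1 and 3, at 67.0 and 64.9 CPM, bound the gap between them. The log2 fold change by field was 0.25 (SE 0.13, edgeR adjusted p = 0.904). Gstm1 was highest in WT replicate 2, at 442 CPM, and lay between 331 and 349 CPM in the other 5 libraries. Gstm2 ran from 150 to 201 CPM.

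The thioredoxin system was at 0.15 or less in size of log2 fold change by library name for 4 of its 5 genes, Txn1 (0.06, SE 0.18), Txn2 (0.08, SE 0.15), Srxn1 and Txnrd1 (-0.15, SE 0.15). Txnrd2, the mitochondrial thioredoxin reductase, was at 0.17 (SE 0.17). Txn1, the cytosolic thioredoxin, ran from 67.2 CPM in WT replicate 1 to 108 CPM in WT replicate 2. Of 24 other thioredoxin, peroxiredoxin and selenoprotein genes 23 were tested and 0 passed. Prdx4, the peroxiredoxin of the endoplasmic reticulum, had an unadjusted p of 0.0264 by library name, at 33.4, 45.1 and 36.6 CPM in WT replicates 1 to 3 and 46.6, 55.8 and 50.1 CPM in KO replicates 1 to 3, with a log2 fold change of 0.41 (SE 0.16, edgeR adjusted p = 0.99993).

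Among the enzymes that remove superoxide and peroxide, Sod2 stood at 391, 385 and 423 CPM in WT replicates 1 to 3 and at 409, 446 and 385 CPM in KO replicates 1 to 3. Its log2 fold change was 0.05 (SE 0.14) by library name and -0.01 (SE 0.14) by genotype field. Catalase, Cat, which splits hydrogen peroxide in peroxisomes, stood at 178, 141 and 133 CPM in WT replicates 1 to 3 and at 140, 137 and 147 CPM in KO replicates 1 to 3. WT replicate 1 was the high library, and the other 5 lay between 133 and 147 CPM. Sod1, the cytosolic dismutase, ran from 151 to 229 CPM and Sod3, the extracellular one, from 72.0 to 133 CPM, both lowest in WT replicate 1 and highest in WT replicate 2.

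Gpx3 stood at 3493, 4598 and 4385 CPM in WT replicates 1 to 3 and at 4103, 4318 and 4031 CPM in KO replicates 1 to 3, with WT replicate 1 lowest. Its log2 fold change was -0.00 (SE 0.16) by library name and 0.14 (SE 0.15) by genotype field. Gpx1, the cytosolic selenium peroxidase, ran from 93.9 CPM in WT replicate 1 to 193 CPM in WT replicate 2, and Gpx4 from 181 CPM in WT replicate 1 to 296 CPM in KO replicate 3. All 3 peroxidases were thus lowest in the same library.

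All 5 peroxiredoxins had log2 fold changes above 0 by library name, from 0.01 (SE 0.18) for Prdx5 to 0.21 (SE 0.16) for Prdx2, and 0 passed. By genotype field 2 of the 5 were above 0. Prdx5, found in mitochondria, peroxisomes and the cytosol, stood at 221, 342 and 303 CPM in WT replicates 1 to 3 and at 327, 273 and 269 CPM in KO replicates 1 to 3. The 3 libraries with the field KO were the 3 highest, at 324 ± 19.7 CPM (SD, n = 3) against 254 ± 28.9 CPM. The log2 fold change by field was 0.35 (SE 0.14, edgeR adjusted p = 0.868). Prdx1, a cytosolic peroxiredoxin, was highest in KO replicates 2 and 3, at 521 and 522 CPM, and lay between 421 and 452 CPM in the other 4 libraries.

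The NADPH oxidases make superoxide or hydrogen peroxide. Nox4 stood at 4.62, 5.64 and 3.95 CPM in WT replicates 1 to 3 and at 3.01, 6.45 and 2.40 CPM in KO replicates 1 to 3, and the groups overlapped in both readings. Cybb, the catalytic subunit of the phagocyte oxidase, stood at 25.2, 32.8 and 27.0 CPM in WT replicates 1 to 3 and at 28.1, 38.1 and 32.8 CPM in KO replicates 1 to 3. The fitted change on the log2 scale was 0.22 (SE 0.17) by library name and -0.13 (SE 0.17) by genotype field. The 11 macrophage markers summed to 538 to 789 CPM in WT and to 606 to 707 CPM in KO by library name. By genotype field they summed to 538 to 707 CPM in WT and to 643 to 789 CPM in KO. By library name 3 of the 11 were higher in KO and 8 lower, and by genotype field 9 were higher and 2 lower. Of 19 other oxidant-producing genes 14 were tested and 0 passed. Nos3, endothelial nitric oxide synthase, of which 9.91% lies outside other genes, was at 0.76 (SE 0.21, edgeR adjusted p = 0.748) by genotype field.

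NADPH, which glutathione and thioredoxin reductases consume, is supplied by a further 15 genes, of which 13 were tested and 0 passed. By genotype field the nearest to the threshold were Pgls and Taldo1 of the pentose phosphate pathway. Pgls, of which 61.4% lies outside other genes, stood at 17.3, 40.6 and 31.9 CPM in WT replicates 1 to 3 and at 34.7, 24.7 and 22.1 CPM in KO replicates 1 to 3. The fitted change on the log2 scale was 0.74 (SE 0.17, edgeR adjusted p = 0.595), and with the replicate block it passed at 0.75 (SE 0.15, edgeR adjusted p = 0.0403). Taldo1, transaldolase, was at 0.44 (SE 0.14, edgeR adjusted p = 0.786). G6pdx, the first enzyme of the pathway, and Nnt, the mitochondrial transhydrogenase, had 0 counts in all 6 libraries. Other annotated genes, for Nnt a second entry of the same symbol, cover all of G6pdx and all but 0.17% of Nnt, so no level is read from these zeros.

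Over the 9 pathway lists together, 145 of 162 genes were tested, and 0 passed in either reading. An unadjusted p under 0.05 was held by 2 genes (1.38%) by library name and by 9 genes (6.21%) by genotype field, beside 1.49% and 5.69% of all genes. The median log2 fold change was -0.03 by library name and -0.02 by genotype field.

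**Figure D4:**
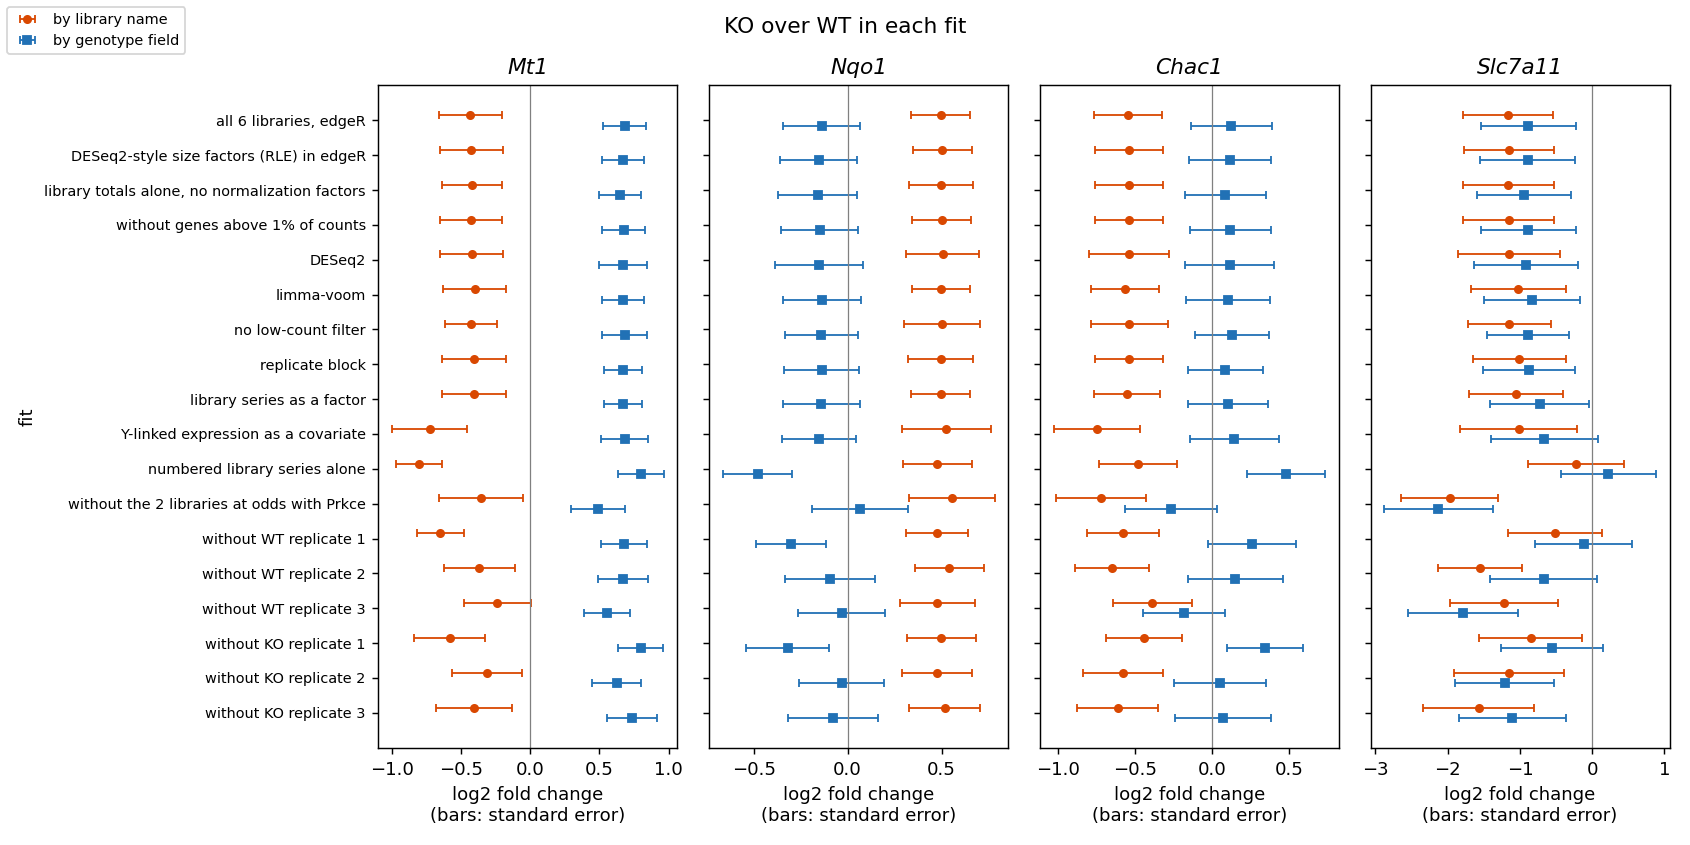
Log2 fold change of KO over WT, with its standard error, for Mt1, Nqo1, Chac1 and Slc7a11 in each fit, by library name (orange circles) and genotype field (blue squares). Mt1 stays above 0 in all 18 fits by genotype field and below 0 in all 18 by library name, Nqo1 and Chac1 keep their sign in all fits by library name and change it in some by genotype field, and Slc7a11 moves most when libraries are left out.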

How the data were processed

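RNA from atria of 6 mice was sequenced, 1 library each. Per the submitters' processing notes, the tools featureCounts (1.5.0-p3), HISAT2 (2.1.0), MultiQC (1.7) and FastQC (0.11.5) and the build GRCm38 were used, with no role stated. The sources used here do not give the annotation release, the counted feature or the strandedness. The deposited values are raw counts per Ensembl gene, not normalised. Per the labels' protocols, libraries were made with the TruSeq RNA kit v2, which does not mark strand. Positions and exons came from GENCODE M21, which held 54809 of 54838 identifiers.

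Differences were tested with edgeR 4.0.16 in R 4.3.3 (quasi-likelihood F test, robust, TMM, filterByExpr, two-sided, Benjamini-Hochberg over all genes tested, adjusted p 0.05), over all 6 libraries, by library name and by genotype field. SE was derived from the log2 fold change and its F statistic. The procedure was tested on simulated data. DESeq2 1.42.0, limma-voom (limma 3.58.1), other scalings and filters, covariates, a replicate block and omission of libraries were alternatives. Libraries with the same replicate number deviated weakly together (correlation of deviations from group means 0.157, 0.162 and 0.121 by library name and 0.269, 0.227 and 0.121 by genotype field). Pairs of unlike number were not compared, so these values do not show that a shared number matters. The number was used as a block in an alternative fit only, and the main fits were unpaired. The labels used here state no pairing, and both libraries numbered 1 have names that begin with Old. All pairs of libraries differed by more than counting error (lowest ratio of chi-square to its degrees of freedom 18.8). Poisson intervals cover counting error only, since reads carry no molecular identifiers.

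The genes and lists were chosen with earlier results of these data known. All 36 genes are named. Values in every library are given for 15 genes set by role, the 4 with the smallest p in each comparison and the 3 with the widest range; of each pathway list up to 2 with the smallest p in each comparison are named. Myl2, Glo1, and genes set beside Prkce, were chosen after their values were seen.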

Additional observations from a re-analysis of the deposited data

How the results depend on the processing

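By library name, 0 of the 34 tested antioxidant genes and 0 genes of the pathway lists passed in any fit; the count over all genes was 0 in edgeR and became 1 without the low-count filter, 3 in the numbered series alone and 6 without the 2 libraries at odds with Prkce, and ran from 0 to 4 leaving out 1 library. By genotype field, the count over all genes of 2 became 19 in DESeq2, 1 in limma-voom, 25 without the low-count filter, 51 with the replicate block and 7 with the library series as a factor, and ran from 0 to 2 leaving out 1 library. The count of antioxidant genes by field became 1 (Mt1) in DESeq2, without the low-count filter and with the replicate block, and the count of pathway genes became 1 (Pgls) with the replicate block. The block changed no other call among the genes described. The cause of these changes was not tested. Mt1, the one antioxidant gene that passed in any fit, was above 0 in all 18 fits by genotype field and below 0 in all 18 by library name. Of 578 log2 fold changes in alternatives, 552 stayed within 1 SE by library name and 26 moved further. By genotype field 552 stayed within 1 SE with no change of call, 23 moved further, and 3, those of Mt1 named above, became called. Leaving out WT replicate 1 turned the sign of 10 small fold changes by library name, among them Gpx1 and Prdx5, none of them called. Low counts, 1 to 48 per library, limit Slc7a11, Gsta3, Gclm and Gss, and for the last 3 depth and exons shared with other genes cannot be told apart.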
